A study of Mus musculus with 9 samples.

Results

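Integrins and the proteins of the focal adhesion plaque were followed in squamous cell carcinoma (SCC) cells of the mouse that differed in focal adhesion kinase (FAK). The 44 genes were taken by symbol and not by a cut on their values, although earlier results of these data were known. All 44 were among the 19044 gene identifiers of the expression table. They comprised 21 integrin subunits and 23 plaque proteins. RNA-seq had been performed on 3 cell lines with 3 replicates each. The SCC cells came from a chemically induced skin tumour (DMBA and TPA) of FVB mice carrying K14CreER and *FAK* flox/flox alleles. The FAK gene *Ptk2* had been deleted in culture with 4-hydroxytamoxifen. FAK-/- cells lack FAK, FAK-WT-expressing cells carry the wild-type protein and FAK-kd-expressing cells a kinase-deficient mutant. Both proteins were stably re-expressed from a retrovirus, with hygromycin selection, in a FAK-/- clone. All lines therefore share the deletion of the endogenous gene and 1 clone of origin, and differences between them cannot be told apart from differences that arose as each line was made and selected. The labels name the cell line and not separate cultures, so p-values measure the spread between these libraries only.

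Integrins are receptors made of an alpha and a beta subunit that bind extracellular matrix outside the cell and, through talin and kindlin, the actin cytoskeleton inside it. The choice of alpha and beta subunit sets the ligand: some pairs bind collagens, some laminins and some the RGD sequence of fibronectin and vitronectin. Clustered integrins recruit a plaque of adaptors, among them vinculin, zyxin, the ILK, PINCH and parvin complex and the tensins. FAK is a tyrosine kinase of this plaque, activated when integrins engage matrix. In skin, integrins of the basal keratinocyte layer anchor the epidermis to its basement membrane.

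FAK-WT replicate 1 held 779755 counts, which is 2.31% of the median of the other 8 libraries (25304994 to 37264636 counts). At this depth 15 of the 44 genes had fewer than 10 counts in it, and 3 counts equal 3.78 CPM (the count relative to the TMM-scaled library size), against 0.0798 CPM in FAK-WT replicate 2. FAK-/- replicate 3 stood apart from its group: its chi-square per degree of freedom against the other FAK-/- libraries was 59.0 and 53.3, and 2.75 to 18.9 within all other pairs of a line. FAK-kd replicate 1 gave 17.1 and 18.9 against FAK-kd replicates 2 and 3, which gave 5.27 between them. The pairs with FAK-WT replicate 1 gave 2.75, which its shallow depth keeps low, so this is no sign of agreement. Calls that rest on FAK-WT replicate 1 or FAK-/- replicate 3 are given without that library. *Ptk2* read 215 ± 1.92 CPM in FAK-WT-expressing, 21.6 ± 1.93 CPM in FAK-/- and 163 ± 11.5 CPM in FAK-kd-expressing cells (SD, n = 3). This sets FAK-/- cells apart from the others, although 595 to 729 counts remained in their libraries. Gene totals cannot tell the wild-type from the kinase-deficient form, so those 2 labels were not checked. Of 8 keratinocyte markers, 6 were in the table, summing to 0.237 to 1.77 CPM per library, and *Krt5*, *Krt14* and *Cdh1* were at or near 0. *Krt8* alone reached a mean of 1 CPM, in FAK-kd-expressing cells (1.02 ± 0.313 CPM), and passed both criteria there, with a log2 fold change over FAK-/- cells of 2.13 ± 0.43 (SE, adjusted p = 0.00548). The 6 fibroblast markers in the table summed to 1318 to 1949 CPM, nearly all of it *Col3a1* (1287 to 1913 CPM). *Pdgfra* read 10.1 to 33.5 CPM, *Col1a2* 1.68 to 7.16 CPM and *Col1a1* at most 1.64 CPM. *Thy1* (0 to 0.0532 CPM) and *Dcn* (0 to 0.506 CPM) stayed under 1 CPM. *Pdgfra* was lower with wild-type FAK than in FAK-/- (log2 fold change -1.44) and FAK-kd cells (-1.11), past both criteria. The 4 endothelial markers summed to 0.240 to 2.05 CPM. Of these *Cdh5* reached a mean of 1.49 CPM in FAK-WT cells, past both criteria against each other line. Most defining markers of keratinocytes were thus at or near 0 in the labelled squamous cells, and in bulk samples fewer cells of a type and less RNA per cell cannot be told apart.

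**Figure D1:**
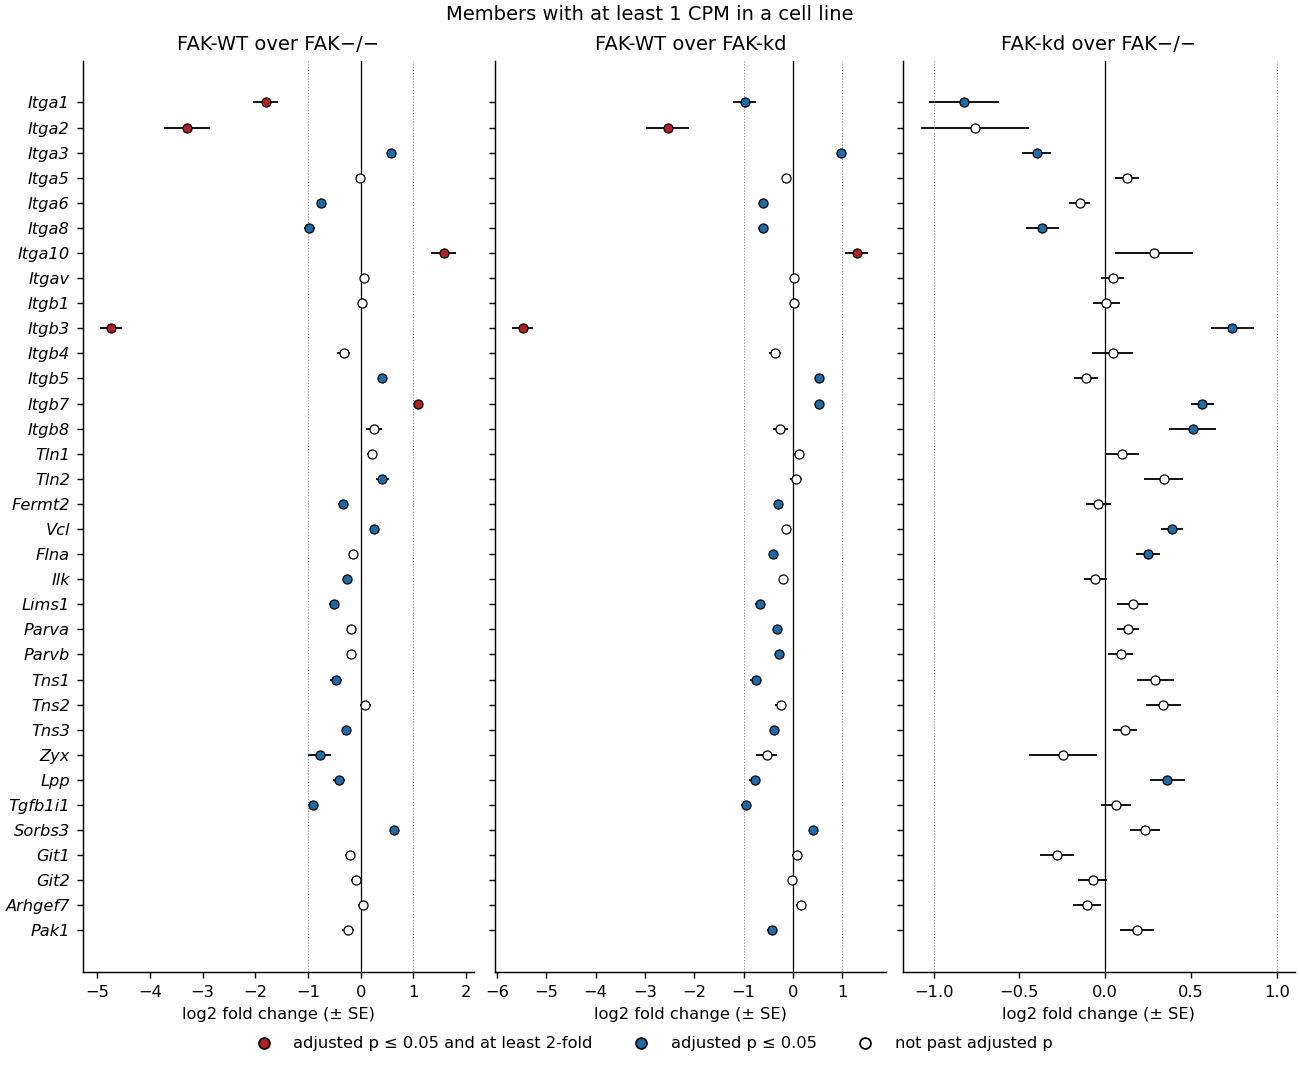
Log2 fold change (x axis) of the 34 genes with a mean of at least 1 CPM in a line (rows, grouped by role). The 3 comparisons of cell lines are shown, with the standard error derived from edgeR's F statistic as bars. The x axes of the panels cover different ranges. *Itgb3* lies farthest from 0, at -4.73 for FAK-WT over FAK-/- cells and -5.48 for FAK-WT over FAK-kd cells.

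FAK-WT-expressing cells differed from FAK-/- cells in integrin and plaque genes in both directions. The fall of *Itgb3* RNA was the change farthest from 0, lower *Itga1*, *Itga2*, *Itga6* and *Itga8* accompanied it, and *Itga3*, *Itga10*, *Itgb5* and *Itgb7* were higher. At an adjusted p of at most 0.05 (edgeR's quasi-likelihood test, Benjamini-Hochberg adjustment over all 19044 genes), 8 of the 44 genes were higher and 13 lower in FAK-WT-expressing than in FAK-/- cells, and 23 did not pass. Over all genes 8.01% were higher and 9.96% lower, 18.0% in all, and among the 44 genes 47.7%. The shares of all genes were taken with no count filter, while 34 of the 44 genes had a mean of at least 1 CPM in a line. Shares at a matched expression level were not compared, here or below. When the log2 fold change also had to reach 1 or -1, 3 were higher (*Itga10*, *Itgb2*, *Itgb7*) and 3 lower (*Itga1*, *Itga2*, *Itgb3*), against 2.32% and 3.06% of all genes (5.38% in all). The median log2 fold change of the 44 genes was -0.13, and 0 over all genes. Most differences were therefore smaller than the fold criterion. Without FAK-WT replicate 2 the higher genes on the adjusted p were 5, and without FAK-WT replicate 3 the lower genes were 8.

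FAK-WT- and FAK-kd-expressing cells differ in the kinase activity of FAK, but *Ptk2* RNA was also higher in FAK-WT cells. Its log2 fold change was 0.40 ± 0.077 (SE, adjusted p = 0.00163, edgeR's quasi-likelihood test), and effects of the 2 differences cannot be told apart. Between these lines 5 of the 44 genes were higher and 15 lower in FAK-WT cells at an adjusted p of at most 0.05, against 7.58% and 10.2% of all genes (17.7% in all) and 45.5% of the 44. With the fold criterion 1 was higher (*Itga10*) and 2 were lower (*Itga2*, *Itgb3*), and the shares of all genes were 2.37% and 2.89% (5.26% in all). The median was -0.14. FAK-kd-expressing and FAK-/- cells differed in fewer of the genes: 6 were higher (*Itgb3*, *Itgb7*, *Itgb8*, *Vcl*, *Flna*, *Lpp*) and 3 lower (*Itga1*, *Itga3*, *Itga8*) in FAK-kd cells, where all genes gave 3.97% and 3.88% (7.84% in all) and the 44 genes 20.5%. With the fold criterion 0 passed in either direction by edgeR or DESeq2 (1 at an unadjusted p under 0.05 with the fold criterion and 17 without it), against 0.914% and 1.09% of all genes (2.01% in all), although 9 passed on the adjusted p alone. Without FAK-/- replicate 3 the higher genes on the adjusted p numbered 12, and 3 without FAK-WT replicate 2 or 3, FAK-/- replicate 1, or FAK-kd replicate 2 or 3. The lower genes numbered 1 without FAK-kd replicate 1 or 2, and with the fold criterion 1 was lower without FAK-kd replicate 3. For FAK-WT over FAK-kd cells, leaving out FAK-WT replicate 1 gave 2 higher genes with the fold criterion. The 2 comparisons with FAK-WT share the FAK-WT libraries, so their agreement is not independent. Genes lower in FAK-WT-expressing cells than in each of the other lines numbered 11 (*Itga1*, *Itga2*, *Itga6*, *Itga8*, *Itgb3*, *Fermt2*, *Lims1*, *Tns1*, *Tns3*, *Lpp*, *Tgfb1i1*), and 5 were higher than in each (*Itga3*, *Itga10*, *Itgb5*, *Itgb7*, *Sorbs3*). The share of all genes in these 2 joint groups was not worked out, so neither count is read as an excess.

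Alpha and beta subunits reach the surface as pairs, and only RNA was measured here. *Itgb3* (ENSMUSG00000020689, chr11:104608000-104670476 of mm10, plus strand) encodes the partner of alpha v in the vitronectin receptor. It read 0, 0.479 and 0.346 CPM in the FAK-WT libraries, from 0, 18 and 12 counts. In FAK-/- libraries it read 10.4, 12.2 and 10.5 CPM, and in FAK-kd libraries 16.4, 18.0 and 20.8 CPM. The groups did not overlap, and the FAK-WT libraries were all under 0.5 CPM, the first at a depth where 3 counts are 3.78 CPM. The log2 fold change was -4.73 ± 0.21 (SE, adjusted p = 7.2e-10) for FAK-WT over FAK-/- cells, -5.48 ± 0.21 (SE, adjusted p = 1.1e-10) over FAK-kd cells and 0.74 ± 0.13 (SE, adjusted p = 0.00153) for FAK-kd over FAK-/- cells, in edgeR's quasi-likelihood test. *Itgb3* was 26.6-fold and 44.5-fold lower with wild-type FAK, and 1.67-fold higher in FAK-kd than in FAK-/- cells. Leaving out any 1 library kept these values at -5.00 to -4.54, -5.73 to -5.28 and 0.64 to 0.81.

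*Itgb7* (ENSMUSG00000001281, chr15:102215995-102231944 of mm10, minus strand), the beta subunit of the lymphocyte homing receptors, was higher with wild-type FAK. Its levels were 139.7, 156 and 151 CPM with wild-type FAK, 71.6, 67.2 and 73.4 CPM without FAK and 102, 106 and 106 CPM with the kinase-deficient protein. The 3 lines were separate, with FAK-kd-expressing cells between the others. The log2 fold change was 1.09 ± 0.069 (SE, adjusted p = 2.9e-08) for FAK-WT over FAK-/- cells, 0.52 ± 0.068 (SE, adjusted p = 5.3e-05) over FAK-kd cells and 0.57 ± 0.066 (SE, adjusted p = 5.4e-05) for FAK-kd over FAK-/- cells. Both known alpha partners of this subunit, *Itga4* and *Itgae*, stayed under 1 CPM in every line. The 3 leukocyte markers in the table summed to 0 to 3.36 CPM per library, with *Cd68* the only one above a mean of 1 CPM; their part in the result was not tested.

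**Figure D2:**
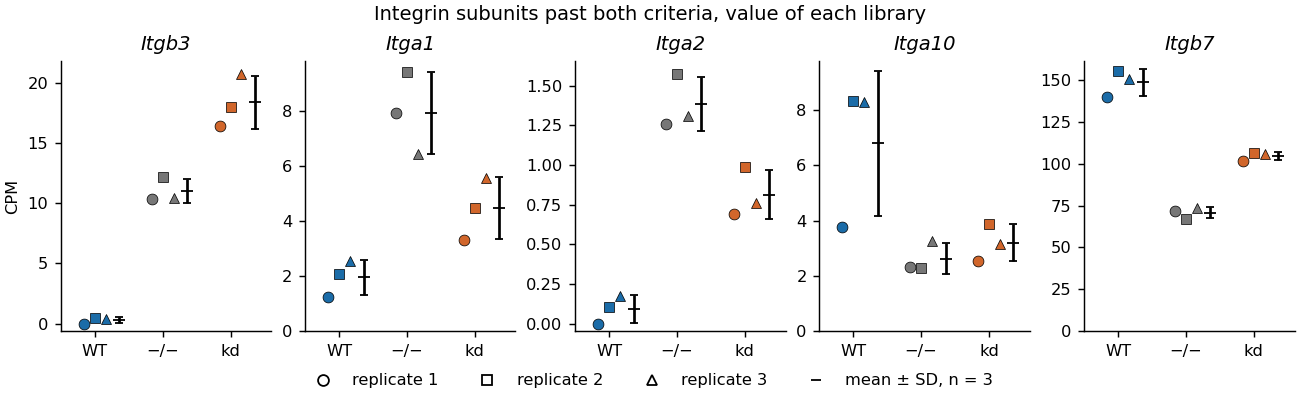
CPM (y axis) of the integrin subunits past both criteria and at a mean of 1 CPM or more in a line, in each library of the 3 cell lines (points; bars mark the mean and the SD, n = 3). *Itgb3* sits under 0.5 CPM in every FAK-WT library and above 10 CPM in every FAK-/- and FAK-kd library.

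*Itgb1*, the common partner of the collagen, laminin and fibronectin receptors, read 831, 823 and 865 CPM in FAK-WT, 879, 892 and 704 CPM in FAK-/- and 844, 802 and 842 CPM in FAK-kd libraries. These ranges overlapped, and its log2 fold changes of 0.026 (adjusted p = 0.895), 0.019 (adjusted p = 0.937) and 0.0074 (adjusted p = 1.0) did not pass in edgeR's test; their sign changed with the scaling or the libraries kept. *Itgb4*, which pairs with alpha 6 in hemidesmosomes, read 54.1, 71.8 and 70.6 CPM in FAK-WT libraries. FAK-/- libraries gave 75.4, 80.6 and 102 CPM and FAK-kd libraries 74.8, 95.2 and 95.7 CPM. The FAK-WT libraries lay under all others, but the differences of -0.32 ± 0.13 (SE, adjusted p = 0.0991) from FAK-/- and -0.36 ± 0.13 (SE, adjusted p = 0.0617) from FAK-kd cells did not pass, nor did FAK-kd over FAK-/- cells at 0.043 (adjusted p = 0.898). The first was nearer 0 without FAK-/- replicate 3 (-0.15, adjusted p = 0.282), and passed without FAK-/- replicate 1 (-0.40, adjusted p = 0.0469) and with the replicate block (-0.38, adjusted p = 0.0103). The second passed without FAK-/- replicate 3 or FAK-kd replicate 1 (-0.46 to -0.34, adjusted p at most 0.0282), in the fit of the compared groups alone (-0.34, adjusted p = 0.0201) and with the replicate block (-0.42, adjusted p = 0.00485). *Itgb5*, *Itgb8* and *Itgb2* were named after their values were seen. *Itgb5*, an alpha v partner, was higher with wild-type FAK, at 335 ± 16.8 CPM against 254 ± 21.0 and 234 ± 3.53 CPM, a log2 fold change of 0.41 (adjusted p = 0.00088) over FAK-/- and 0.52 (adjusted p = 9.7e-05) over FAK-kd cells. *Itgb8*, another alpha v partner, passed only in FAK-kd over FAK-/- cells, at 0.51 ± 0.14 (SE, adjusted p = 0.0346), with overlapping libraries (10.2 to 13.8 against 7.84 to 10.4 CPM), and lost the call without FAK-WT replicate 2 or 3, FAK-/- replicate 1, or FAK-kd replicate 2 or 3 (0.43 to 0.50, adjusted p up to 0.193) and in DESeq2 (0.50, adjusted p = 0.0707) and in the fit of the compared groups alone (0.51, adjusted p = 0.0777). *Itgb2*, the leukocyte beta subunit, passed both criteria for FAK-WT over FAK-/- cells at 1.42 ± 0.47 (SE, adjusted p = 0.0495) while its libraries overlapped (0, 0.825 and 0.807 CPM against 0.419, 0.315 and 0.128 CPM), and the call was lost without FAK-WT replicate 2 or 3, FAK-/- replicate 2 or 3, or FAK-kd replicate 1, 2 or 3 (1.07 to 1.49, adjusted p up to 0.198) and in DESeq2 (1.38, adjusted p = 0.231), in the fit of the compared groups alone (1.43, adjusted p = 0.102) and with the replicate block (1.49, adjusted p = 0.0776). *Itgb6* had at most 3 counts in every library.

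Among the 13 alpha subunits, 2 were higher and 4 lower in FAK-WT-expressing than in FAK-/- cells, and 2 were higher and 4 lower than in FAK-kd-expressing cells. All genes gave 8.01% and 9.96% in the first comparison and 7.58% and 10.2% in the second. *Itga1* (ENSMUSG00000042284, chr13:114953096-115101964 of mm10, minus strand) and *Itga2* (ENSMUSG00000015533, chr13:114833081-114932100 of mm10, minus strand), whose products bind collagen together with beta 1, lie near each other on the same strand and were both lower with wild-type FAK than without FAK. *Itga1* read 1.26, 2.08 and 2.54 CPM in FAK-WT libraries, from 1, 78 and 88 counts. It read 7.94, 9.42 and 6.43 CPM in FAK-/- and 3.33, 4.49 and 5.59 CPM in FAK-kd libraries. The lines did not overlap, FAK-kd-expressing cells lying between the others. Its log2 fold change was -1.80 ± 0.24 (SE, adjusted p = 6.9e-05) for FAK-WT over FAK-/- cells, -0.98 ± 0.24 (SE, adjusted p = 0.00912) for FAK-WT over FAK-kd cells and -0.82 ± 0.21 (SE, adjusted p = 0.0223) for FAK-kd over FAK-/- cells. The second was lost without FAK-WT replicate 2 or FAK-kd replicate 3 (-0.86 to -0.77, adjusted p up to 0.0996), and the third without FAK-/- replicate 2, or FAK-kd replicate 1 or 2 (-0.83 to -0.66, adjusted p up to 0.0977). Without FAK-WT replicate 1 the first was -1.78. *Itga1* overlaps *Pelo* on its own strand, and 3.56% of its 31-base words occur in other genes.

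*Itga2* was low throughout. It read 0, 0.106 and 0.173 CPM with wild-type FAK, which is 0, 4 and 6 counts. FAK-/- libraries gave 1.26, 1.58 and 1.31 CPM and FAK-kd libraries 0.690, 0.989 and 0.761 CPM. The FAK-WT libraries lay under all others, at a log2 fold change of -3.30 ± 0.43 (SE, adjusted p = 6.0e-05) against FAK-/- and -2.54 ± 0.44 (SE, adjusted p = 0.00066) against FAK-kd cells. FAK-kd over FAK-/- cells gave -0.76 ± 0.31 (SE, adjusted p = 0.176). Without FAK-WT replicate 1 the FAK-WT comparisons gave -3.28 and -2.52.

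*Itga10* (ENSMUSG00000090210, chr3:96645584-96664519 of mm10, plus strand), another collagen-binding subunit, was higher with wild-type FAK. It read 3.78, 8.33 and 8.28 CPM in FAK-WT libraries (3, 313 and 287 counts), 2.31, 2.29 and 3.27 CPM in FAK-/- and 2.55, 3.89 and 3.16 CPM in FAK-kd libraries. FAK-WT replicate 1, with its shallow depth, was the lowest FAK-WT value and overlapped the FAK-kd range. Log2 fold changes were 1.58 ± 0.23 (SE, adjusted p = 0.00019) and 1.29 ± 0.23 (SE, adjusted p = 0.00088), and FAK-kd over FAK-/- cells gave 0.29 (adjusted p = 0.525). Without FAK-WT replicate 1 the first 2 were 1.66 and 1.37. Of its 31-base words 31.8% also occur in the overlapping gene *Gm42957*, so its counts are uncertain.

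The laminin-binding subunits moved in opposite directions. *Itga3* (named after its values were seen) read 321, 374 and 357 CPM with wild-type FAK, 218, 224 and 269 CPM without FAK and 178, 179.9 and 182 CPM with the kinase-deficient form. *Itga6*, the partner of beta 1 and beta 4, read 174, 169 and 172 CPM with wild-type FAK, 288, 297 and 282 CPM without FAK and 273, 251 and 259 CPM with the kinase-deficient form. For both genes FAK-WT libraries lay outside the range of each other line. *Itga3* had log2 fold changes of 0.58 ± 0.085 (SE, adjusted p = 0.00016), 0.98 ± 0.085 (SE, adjusted p = 9.2e-07) and, for FAK-kd over FAK-/- cells, -0.40 ± 0.083 (SE, adjusted p = 0.00704). *Itga6* gave -0.75 ± 0.065 (SE, adjusted p = 7.7e-07) and -0.61 ± 0.065 (SE, adjusted p = 7.4e-06) for FAK-WT over FAK-/- and FAK-kd cells and -0.15 (adjusted p = 0.182) for FAK-kd over FAK-/- cells, which passed without FAK-/- replicate 3 (-0.16, adjusted p = 0.0417). *Itga3* and *Itga6* were also compared within a library, in CPM per kilobase of the longest coding transcript. The ratio of *Itga3* to *Itga6* was then 1.64, 1.96 and 1.84 in FAK-WT, 0.671, 0.668 and 0.846 in FAK-/- and 0.577, 0.634 and 0.622 in FAK-kd libraries. No ratio of FAK-WT cells overlapped either other line. This follows from the separate ranges of both genes given above, so the ratio is a description and no further evidence. Ratios of other subunits were also worked out and are not given.

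Of the subunits that bind RGD ligands, *Itga8*, the receptor subunit for nephronectin (named after its values were seen), was lower with wild-type FAK, at 20.1, 23.8 and 23.7 CPM against 49.5, 47.9 and 41.0 CPM in FAK-/- and 33.2, 37.6 and 36.4 CPM in FAK-kd libraries. The log2 fold change was -0.98 ± 0.11 (SE, adjusted p = 8.6e-06) over FAK-/- cells, -0.61 ± 0.11 (SE, adjusted p = 0.00068) over FAK-kd cells and -0.37 (adjusted p = 0.0283) for FAK-kd over FAK-/- cells, the last lost without FAK-/- replicate 1 or 2, or FAK-kd replicate 1, 2 or 3 (-0.41 to -0.31, adjusted p up to 0.105) and in the fit of the compared groups alone (-0.37, adjusted p = 0.0505). *Itga5*, the fibronectin receptor subunit, at 179 to 187 CPM in FAK-WT, 175 to 201 CPM in FAK-/- and 192 to 207 CPM in FAK-kd libraries, did not pass in any comparison. *Itgav* did not either, at 149 to 154, 136 to 153 and 139 to 157 CPM in the same lines. *Itga4*, *Itga7*, *Itga9*, *Itga11* and *Itgae* stayed under a mean of 1 CPM in every line, *Itga9* and *Itga11* with at most 3 counts in any library.

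Per kilobase of the longest coding transcript, alpha subunit levels ordered differently in the 3 lines. With wild-type FAK, *Itga3* (72.2 ± 5.58 CPM per kb) was followed by *Itga5* (41.8 ± 0.947), *Itga6* (39.8 ± 0.520) and *Itgav* (21.3 ± 0.381), neighbouring libraries not overlapping. In FAK-/- cells *Itga6* came first at 67.1 ± 1.72 CPM per kb, then *Itga3* at 48.8 ± 5.79 and *Itga5* at 42.1 ± 3.28, whose libraries overlapped. FAK-kd-expressing cells gave *Itga6* at 60.5 ± 2.51, *Itga5* at 46.0 ± 1.78 and *Itga3* at 37.0 ± 0.407 CPM per kb, again with no overlap of neighbours. The beta order was the same in all lines for the highest 4, *Itgb1* (220.1 ± 5.76, 216 ± 27.5 and 217 ± 6.25 CPM per kb in FAK-WT, FAK-/- and FAK-kd cells), *Itgb5*, *Itgb7* and *Itgb4*. The fifth was *Itgb8* in FAK-WT-expressing cells (1.23 ± 0.0308 CPM per kb) and *Itgb3* in FAK-/- (1.90 ± 0.175) and FAK-kd cells (3.18 ± 0.384).

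**Figure D3:**
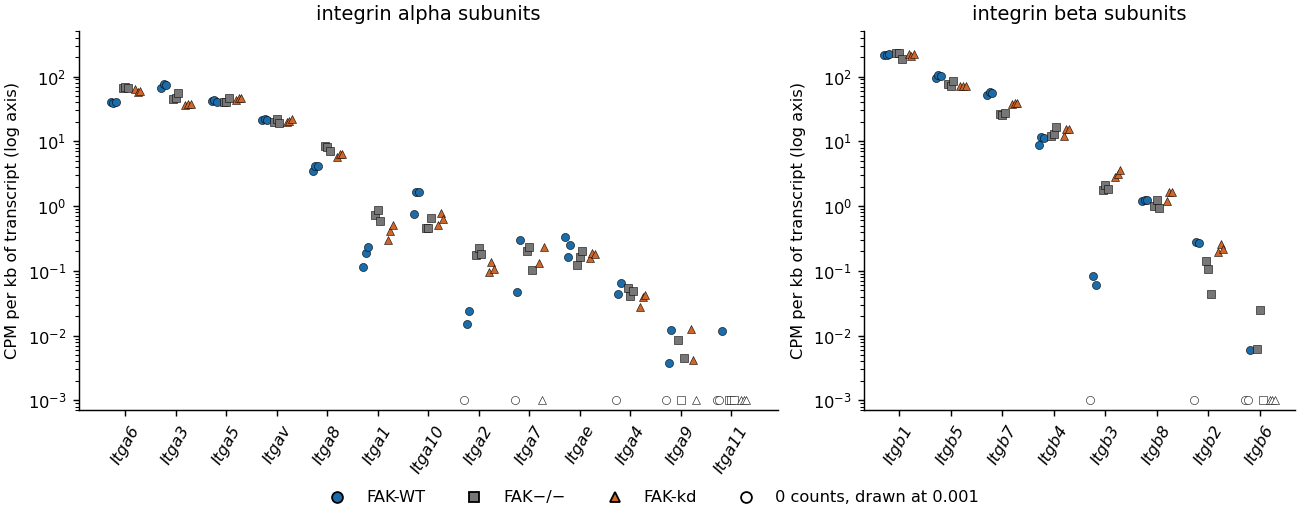
CPM per kilobase of transcript (y axis, log scale) of the integrin subunits in each library of the 3 lines, with libraries at 0 counts drawn as open symbols at 0.001. *Itgb1* lies above every other beta subunit in all lines, and *Itgb3* drops from 1.90 CPM per kb in FAK-/- to 0.0475 in FAK-WT-expressing cells.

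Upstream sequences are shown for the integrin genes past both criteria that had one, since the calls with both criteria turn on them, together with *Vcl* and *Zyx*, which held a motif. They are the 250 bases before the RefSeq gene start, in mm10 coordinates, read 5′ to 3′ on the gene's strand; 32 of the 44 genes had an entry, *Itgb2* and *Itgb3* not among them. Motifs were searched on both strands, namely AP-1 (TGANTCA), the cAMP response element (TGACGTCA) and the CArG box of serum response factor. No AP-1 match is itself a cAMP response element match. Capitals mark a match.
Itga1 (chr13:115101965-115102214, minus strand): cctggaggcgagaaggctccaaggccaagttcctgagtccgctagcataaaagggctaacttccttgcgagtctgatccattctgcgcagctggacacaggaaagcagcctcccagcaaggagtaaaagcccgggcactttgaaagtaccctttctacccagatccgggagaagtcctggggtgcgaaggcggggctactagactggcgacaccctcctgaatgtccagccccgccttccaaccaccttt
Itga2 (chr13:114932101-114932350, minus strand): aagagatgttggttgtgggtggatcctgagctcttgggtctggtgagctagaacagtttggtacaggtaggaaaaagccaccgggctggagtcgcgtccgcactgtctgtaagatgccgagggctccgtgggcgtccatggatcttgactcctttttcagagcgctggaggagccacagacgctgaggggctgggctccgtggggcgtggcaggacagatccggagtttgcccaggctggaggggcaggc
Itga10 (chr3:96645334-96645583, plus strand): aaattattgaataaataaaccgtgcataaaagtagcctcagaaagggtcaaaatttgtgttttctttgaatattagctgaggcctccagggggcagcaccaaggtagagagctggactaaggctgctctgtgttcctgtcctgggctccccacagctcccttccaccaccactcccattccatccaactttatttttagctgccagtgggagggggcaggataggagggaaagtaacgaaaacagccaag
Itgb7 (chr15:102231936-102232185, minus strand): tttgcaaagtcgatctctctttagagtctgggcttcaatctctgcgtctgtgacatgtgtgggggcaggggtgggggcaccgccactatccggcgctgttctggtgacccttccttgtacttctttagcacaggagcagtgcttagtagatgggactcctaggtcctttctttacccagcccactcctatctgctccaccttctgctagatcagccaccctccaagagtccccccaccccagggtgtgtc
Vcl (chr14:20929148-20929397, plus strand): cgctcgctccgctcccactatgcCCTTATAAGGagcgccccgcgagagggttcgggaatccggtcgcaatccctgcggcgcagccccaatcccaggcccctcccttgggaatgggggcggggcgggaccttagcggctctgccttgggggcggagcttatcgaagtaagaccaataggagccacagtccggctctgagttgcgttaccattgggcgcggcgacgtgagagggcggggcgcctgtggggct
Zyx (chr6:42349578-42349827, plus strand): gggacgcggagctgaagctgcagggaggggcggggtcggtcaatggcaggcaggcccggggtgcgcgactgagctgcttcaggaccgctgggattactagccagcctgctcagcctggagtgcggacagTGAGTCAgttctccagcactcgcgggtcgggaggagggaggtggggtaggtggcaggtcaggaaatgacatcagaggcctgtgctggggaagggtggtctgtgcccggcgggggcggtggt
The 4 integrin sequences held none of these motifs. Of the genes with an entry, AP-1 was found in 1 (*Zyx*, 3.12% against 7.82% of all 27025 genes), the cAMP response element in 2 (*Arhgef7* and *Pak1*, 6.25% against 1.77%) and the CArG box in 3 (*Fermt2*, *Itgb6* and *Vcl*, 9.38% against 1.62%). These are letter matches in a short window only.

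Of the 6 integrin activators and actin links, 2 were higher and 1 lower with wild-type FAK than in FAK-/- cells, and 2 were lower than in FAK-kd-expressing cells. Over all genes 8.01% were higher and 9.96% lower in the first comparison, and 10.2% lower in the second. *Tln1*, which encodes the talin that switches integrins on, read 405, 416 and 363 CPM in FAK-WT, 299, 331 and 385 CPM in FAK-/- and 321, 375 and 392 CPM in FAK-kd libraries. Its ranges overlapped, and the log2 fold changes of 0.22 (adjusted p = 0.153), 0.12 (adjusted p = 0.473) and 0.10 (adjusted p = 0.592) did not pass, although FAK-WT over FAK-/- cells passed without FAK-/- replicate 3 (0.32, adjusted p = 0.00427), the highest FAK-/- library. *Vcl* (vinculin, an actin link) read 486, 502 and 464 CPM with wild-type FAK, 395, 419 and 411 CPM without FAK and 496, 544 and 563 CPM with the kinase-deficient form. FAK-/- libraries lay under both other lines, at 0.25 ± 0.068 (SE, adjusted p = 0.0202) for FAK-WT and 0.39 ± 0.067 (SE, adjusted p = 0.00176) for FAK-kd over FAK-/- cells, while FAK-WT over FAK-kd cells gave -0.14 (adjusted p = 0.18). The first was lost without FAK-WT replicate 2 or FAK-/- replicate 1 (0.21 to 0.23, adjusted p up to 0.131). 25.3% of its 31-base words also occur in *Ap3m1* on the opposite strand. The library kit does not mark strand, so reads from this shared part cannot be told apart. *Tln2*, *Fermt2* and *Flna* were named after their values were seen. Kindlin-2 (*Fermt2*), a coactivator of integrins, was lower with wild-type FAK at -0.34 (adjusted p = 0.00583) and -0.30 (adjusted p = 0.0124), and *Tln2* higher than in FAK-/- cells at 0.41 (adjusted p = 0.0325). *Fermt2* lost its calls without FAK-WT replicate 2 or 3 (-0.32 to -0.29, adjusted p up to 0.0728) and without FAK-WT replicate 2 or 3, or FAK-kd replicate 3 (-0.29 to -0.24, adjusted p up to 0.137), and *Tln2* without FAK-WT replicate 2 or FAK-/- replicate 2 (0.30 to 0.36, adjusted p up to 0.239) and with the replicate block (0.40, adjusted p = 0.0572). *Flna*, the actin crosslinker filamin A, read 1367 ± 49.1 CPM in FAK-WT, 1520.0 ± 64.3 CPM in FAK-/- and 1807 ± 141 CPM in FAK-kd cells (SD, n = 3), and passed against FAK-kd cells (-0.40, adjusted p = 0.00054). FAK-kd over FAK-/- cells gave 0.25 (adjusted p = 0.0336), lost without FAK-WT replicate 2 or 3, FAK-/- replicate 1 or 2, or FAK-kd replicate 2 or 3 (0.19 to 0.26, adjusted p up to 0.199), with scaling by library size only (0.23, adjusted p = 0.0505) and in the fit of the compared groups alone (0.25, adjusted p = 0.0837). *Fermt1* stayed under 1 CPM.

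**Figure D4:**
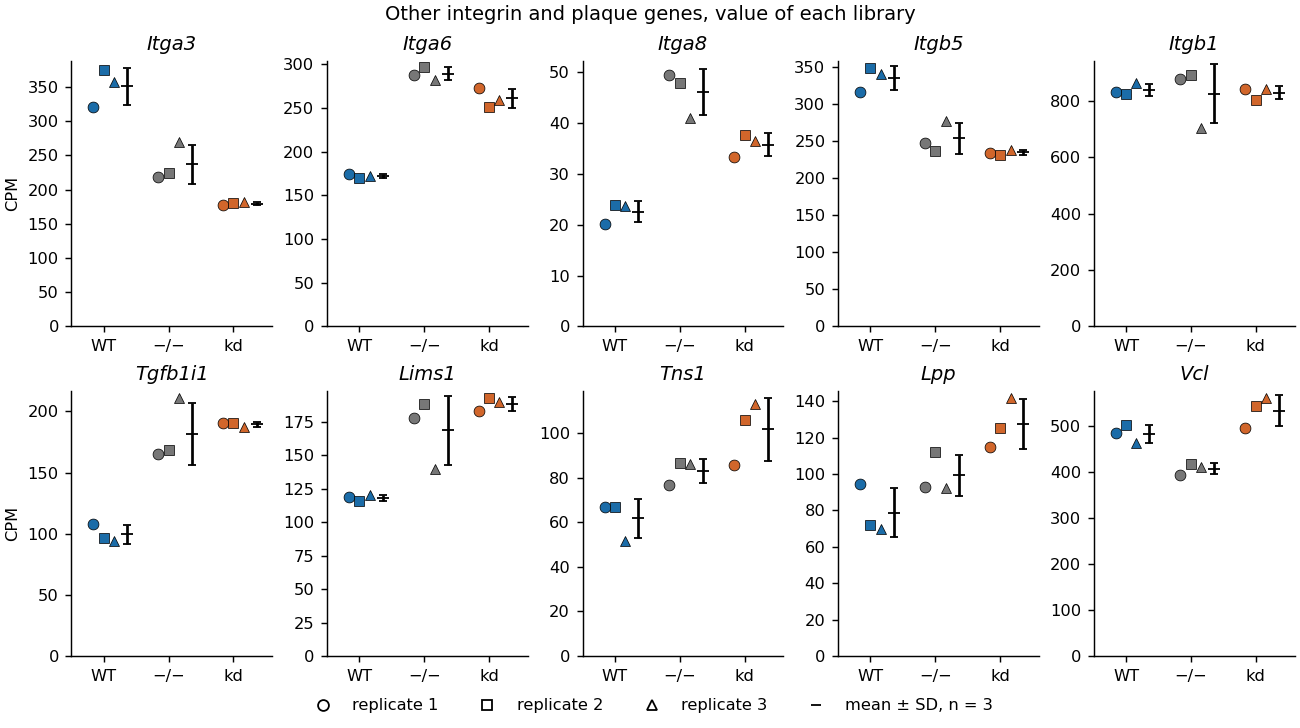
CPM (y axis) of further integrin and plaque genes in each library of the 3 lines (points; bars mark the mean and the SD, n = 3). *Tgfb1i1* lies between 93.8 and 108 CPM in FAK-WT libraries and at 165 CPM or more in all others.

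The ILK, PINCH and parvin complex couples beta subunits to actin. *Ilk* read 273, 253 and 262 CPM in FAK-WT, 306, 300.2 and 331 CPM in FAK-/- and 318, 299 and 284 CPM in FAK-kd libraries. The FAK-WT libraries were under those of FAK-/- cells at -0.26 ± 0.071 (SE, adjusted p = 0.0183), a call lost without FAK-WT replicate 2 or 3 (-0.26 to -0.23, adjusted p up to 0.123), and *Ilk* did not pass against FAK-kd cells (-0.20, adjusted p = 0.0634) or between FAK-kd and FAK-/- cells (-0.057, adjusted p = 0.671), although FAK-WT over FAK-kd cells passed without FAK-/- replicate 3 (-0.21, adjusted p = 0.00418), with at least 10 counts in every library (-0.20, adjusted p = 0.0469), in DESeq2 (-0.19, adjusted p = 0.0429) and in the fit of the compared groups alone (-0.20, adjusted p = 0.0171). Its counts are uncertain, since 78.4% of its 31-base words are shared, mainly with the overlapping gene *Taf10*. The PINCH gene *Lims1* (named after its values were seen) had FAK-WT libraries at 118, 116 and 120.4 CPM, under all FAK-/- (178, 188 and 139 CPM) and FAK-kd libraries (183, 192 and 189 CPM), with -0.51 (adjusted p = 0.00142) and -0.67 (adjusted p = 0.00013). The actin-binding parvins *Parva* and *Parvb* passed against FAK-kd cells, at -0.32 (adjusted p = 0.00276) and -0.28 (adjusted p = 0.0182), the second lost without FAK-WT replicate 2 or 3, or FAK-kd replicate 2 or 3 (-0.30 to -0.26, adjusted p up to 0.0914). *Lims2* stayed under 1 CPM.

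Tensins link integrin tails to actin and carry SH2 domains. *Tns1* and *Tns3*, singled out by their count, were the 2 of 4 that passed, both lower with wild-type FAK than in each other line, as were 9.96% (FAK-/-) and 10.2% (FAK-kd) of all genes. *Tns1* read 66.7, 66.7 and 51.7 CPM in FAK-WT, 76.8, 86.5 and 85.9 CPM in FAK-/- and 85.8, 106 and 113 CPM in FAK-kd libraries, at -0.47 (adjusted p = 0.0114) and -0.76 (adjusted p = 0.00027). *Tns3* gave -0.27 (adjusted p = 0.0176) and -0.39 (adjusted p = 0.00144). Against FAK-/- cells *Tns1* lost the call without FAK-WT replicate 3 (-0.32, adjusted p = 0.13) and *Tns3* without FAK-WT replicate 2 or 3 (-0.30 to -0.22, adjusted p up to 0.162) and in the fit of the compared groups alone (-0.25, adjusted p = 0.0599). *Tns2* did not pass in any comparison, and *Tns4* stayed under 1 CPM. *Tns2* read 103, 107 and 95.5 CPM in FAK-WT, 85.1, 88.2 and 112 CPM in FAK-/- and 107, 126 and 128 CPM in FAK-kd libraries. It came nearest for FAK-kd over FAK-/- cells, at 0.34 (adjusted p = 0.0545 in edgeR's test). The overlap of FAK-/- and FAK-kd cells came from FAK-/- replicate 3, and a value without that library is not given.

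All 4 LIM and SH3 adaptors passed for FAK-WT over FAK-/- cells, 1 higher and 3 lower (8.01% and 9.96% of all genes). In the fit of the compared groups alone, *Zyx* (-0.80, adjusted p = 0.0616) and *Lpp* (-0.38, adjusted p = 0.0609) lost this call. Zyxin (*Zyx*), which gathers at adhesions under tension, read 22.7, 53.3 and 51.6 CPM in FAK-WT libraries, the first from 18 counts. FAK-/- libraries gave 66.4, 64.8 and 121 CPM and FAK-kd libraries 69.4, 73.8 and 69.4 CPM, so the FAK-WT libraries were lowest and FAK-/- replicate 3 was highest. The log2 fold change was -0.78 ± 0.21 (SE, adjusted p = 0.0187) for FAK-WT over FAK-/- cells -0.37 without FAK-/- replicate 3 and -0.68 without FAK-WT replicate 1. Over FAK-kd cells it was -0.53 (adjusted p = 0.107), and FAK-kd over FAK-/- cells gave -0.25 (adjusted p = 0.535), which turned to 0.11 without that library; FAK-WT over FAK-kd cells then passed at -0.48, as they did in the fit of the compared groups alone (-0.49, adjusted p = 0.00457) and with the replicate block (-0.62, adjusted p = 0.0307). *Tgfb1i1*, *Lpp* and *Sorbs3* were named after their values were seen. *Tgfb1i1* encodes Hic-5, a paxillin relative, and read 108, 96.6 and 93.8 CPM in FAK-WT, 165, 168 and 211 CPM in FAK-/- and 190.3, 191 and 187 CPM in FAK-kd libraries. It was 1.87-fold and 1.95-fold lower with wild-type FAK, at -0.90 ± 0.093 (SE, adjusted p = 5.4e-06) and -0.96 ± 0.093 (SE, adjusted p = 3.0e-06). The zyxin relative *Lpp* read 94.4, 72.3 and 70.0 CPM in FAK-WT, 93.1, 112 and 92.6 CPM in FAK-/- and 115, 126 and 142 CPM in FAK-kd libraries, at -0.42 (adjusted p = 0.0148), -0.78 (adjusted p = 0.00011) and, for FAK-kd over FAK-/- cells, 0.36 (adjusted p = 0.0392); FAK-WT replicate 1 overlapped the FAK-/- range. The first *Lpp* call was lost without FAK-WT replicate 2 or 3, or FAK-/- replicate 2 (-0.37 to -0.31, adjusted p up to 0.125), and the third without FAK-WT replicate 2 or 3, FAK-/- replicate 1, or FAK-kd replicate 2 or 3 (0.27 to 0.37, adjusted p up to 0.252), with scaling by library size only (0.35, adjusted p = 0.056), with edgeR's filter on low counts (0.36, adjusted p = 0.054), with at least 10 counts in every library (0.35, adjusted p = 0.0537), in the fit of the compared groups alone (0.36, adjusted p = 0.063) and with the replicate block (0.36, adjusted p = 0.0517). Vinexin (*Sorbs3*), a vinculin partner, was the adaptor that was higher, at 101, 96.5 and 91.5 CPM against 56.1, 59.4 and 67.5 CPM in FAK-/- and 64.9, 77.7 and 72.4 CPM in FAK-kd libraries (0.64, adjusted p = 0.00012, and 0.41, adjusted p = 0.00477). Of *Git1*, *Git2*, *Arhgef7* and *Pak1*, which form a signalling complex at adhesions, *Pak1* passed against FAK-kd cells (-0.42, adjusted p = 0.0106) but not without FAK-kd replicate 2 or 3 (-0.41 to -0.40, adjusted p up to 0.0746), and the other genes, at 113 to 174 CPM (*Git1*), 57.9 to 83.1 CPM (*Git2*) and 43.5 to 51.9 CPM (*Arhgef7*) over all libraries, did not pass in any comparison. For *Git1*, FAK-kd over FAK-/- cells gave -0.28 (adjusted p = 0.0986 in edgeR's test). Its FAK-/- libraries read 132, 130 and 174 CPM and its FAK-kd libraries 116, 122 and 122 CPM. A value without FAK-/- replicate 3, the highest, is not given.

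Among other genes of the pathway, 64 of 65 listed were in the table. At an adjusted p of at most 0.05, 8 were higher and 19 lower for FAK-WT over FAK-/- cells, 8 and 22 for FAK-WT over FAK-kd cells, and 9 and 5 for FAK-kd over FAK-/- cells. These were 42.2%, 46.9% and 21.9% of the list, against 18.0%, 17.7% and 7.84% of all genes. With the fold criterion the counts were 3 and 4, 4 and 5, and 1 and 1, or 10.9%, 14.1% and 3.12% of the list against 5.38%, 5.26% and 2.01% of all genes. Of 30 further plaque proteins, *Csrp1*, an actin-linked LIM protein, read 55.4 to 57.6, 131 to 136 and 184 to 204 CPM in FAK-WT, FAK-/- and FAK-kd libraries, at -1.24 ± 0.07 (SE, adjusted p = 7.8e-09) and -1.76 ± 0.071 (SE, adjusted p = 2.0e-10) for FAK-WT over FAK-/- and FAK-kd cells. The actin scaffold *Palld* (-1.03, adjusted p = 4.6e-07, and -1.31, adjusted p = 3.3e-08) and the migfilin gene *Fblim1* (-1.01, adjusted p = 0.0004, and -1.22, adjusted p = 6.9e-05) were lower too. *Sorbs2* and *Parvg* were higher with wild-type FAK than in FAK-kd cells, *Sorbs2* at under 1 CPM in every line. *Sorbs2* also passed both criteria over FAK-/- cells (2.78, adjusted p = 0.0311 in edgeR's test). Of 19 integrin ligands, nephronectin (*Npnt*), the ligand of the receptor that contains the *Itga8* product, read 5.30 ± 0.457, 40.4 ± 0.778 and 19.8 ± 4.12 CPM in FAK-WT, FAK-/- and FAK-kd cells (SD, n = 3). Its log2 fold changes were -2.90 ± 0.15 (SE, adjusted p = 3.4e-09), -1.87 ± 0.15 (SE, adjusted p = 3.7e-07) and -1.03 ± 0.12 (SE, adjusted p = 6.6e-05) for FAK-WT over FAK-/-, FAK-WT over FAK-kd and FAK-kd over FAK-/- cells. *Thbs1* was lower and *Vcam1* higher with wild-type FAK than with the kinase-deficient form (-1.10, adjusted p = 7.0e-07, and 1.10, adjusted p = 7.9e-06). *Col1a2* rose in FAK-kd over FAK-/- cells at 1.29 (adjusted p = 0.00469). *Tnc* passed both criteria in both FAK-WT comparisons, at mean levels under 3 CPM, with libraries that overlapped against FAK-/- but not FAK-kd cells. *Lamb3* passed both against FAK-/- cells, near the floor at a mean of 0.312 against 0.0213 CPM and with overlapping libraries. Of 15 surface partners and regulators, 2 were higher and 3 lower for FAK-WT over FAK-/- cells on the adjusted p, and 2 and 4 for FAK-WT over FAK-kd cells. Counts that moved with 1 library were 1 higher without FAK-WT replicate 2 and 2 lower without FAK-WT replicate 3 or FAK-/- replicate 3 (FAK-WT over FAK-/- cells, both criteria), and for FAK-kd over FAK-/- cells 2 higher without FAK-/- replicate 3 and 0 lower without FAK-kd replicate 2 or 3.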

How the data were processed

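The authors pseudoaligned paired-end reads (TruSeq RNA v2 libraries) with kallisto 0.43.1 and used tximport for gene totals. What the authors deposited are expected counts, rounded to whole numbers and not scaled, with genes at zero in all libraries removed. The labels name GRCm38/mm10. The transcriptome release and the version of DESeq2, the authors' test, are not given in the sources used here.

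Symbols, positions and transcript lengths came from the GENCODE annotation of mm10; 18856 of 19044 identifiers had a symbol. Shared reads were approximated by shared 31-base words. Tests used edgeR 4.0.16 (R 4.3.3) with TMM factors, no count filter and 1 quasi-likelihood fit of all 9 libraries with cell line as the only factor. Adjusted p (Benjamini-Hochberg, over all genes) of at most 0.05 and log2 fold changes beyond 1 or -1 were the criteria. The standard errors (SE) were the absolute log2 fold change divided by the square root of the quasi-likelihood F statistic. The floor was 3 counts per library and covers counting error only. Alternatives used DESeq2 1.42.0, other scalings and filters, the groups compared alone, the replicate number as a block, and the data without each library. The replicate numbers did not pair the libraries: the deviations of same-numbered libraries correlated at a mean of -0.00768 over 9 pairs, and different-numbered at 0.00353 over 18. On simulated data (18334, 18334 and 18288 genes) with 200 genes changed by a log2 fold of 2, 198, 199 and 199 were recovered for FAK-WT over FAK-/-, FAK-WT over FAK-kd and FAK-kd over FAK-/- cells. Smaller changes were not simulated. The changed genes were drawn from those at a mean above 1 CPM, and no outlier library was simulated. The recovery therefore does not cover genes under 1 CPM or a library that stands apart from its group.

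Values in every library are given for genes past both criteria at a mean of 1 CPM or more, and for *Itgb1*, *Itga6*, *Itgb4*, *Tln1*, *Vcl*, *Ilk* and *Zyx*; of other pathway lists, genes past both criteria are named, up to 5 a list. The members and lists were chosen with earlier results of these data known.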

Additional observations from a re-analysis of the deposited data

Results flagged for a closer look

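For 3 genes, the effects of FAK-WT and FAK-kd relative to FAK-/- cells had opposite signs and the difference between them passed in edgeR's quasi-likelihood test. Both effects are taken against the same FAK-/- libraries. The share of all genes with such a pattern was not worked out. *Itga3* rose by 0.58 on the log2 scale with FAK-WT and fell with FAK-kd (a log2 fold change of -0.40), a difference of 0.98 (adjusted p = 9.2e-07). *Itgb3* had -4.73 with FAK-WT and 0.74 with FAK-kd, a difference of -5.48 (adjusted p = 1.1e-10). *Lpp* had -0.42 with FAK-WT and 0.36 with FAK-kd, a difference of -0.78 (adjusted p = 0.00011), and both of its values lost the call when single libraries were left out (adjusted p up to 0.125 for FAK-WT and 0.252 for FAK-kd). No library of these groups of 3 was tested as an outlier.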

How the results depend on the processing

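Of 1125 recomputed values of single genes, 1011 kept direction and side of the threshold, 74 lost the call, 22 gained it and 18 changed sign. Requiring at least 10 counts in every library left 1 higher and 0 lower of the 44 genes for FAK-WT over FAK-/- cells with both criteria, 0 and 0 for FAK-WT over FAK-kd cells and 3 higher on the adjusted p for FAK-kd over FAK-/- cells; the 3 comparisons of the other pathway genes then gave 0 and 2, 1 and 3, and 0 and 0. This filter removes genes with few counts in the shallow FAK-WT replicate 1. Scaling by library size only and DESeq2 each gave 2 higher for FAK-WT over FAK-kd cells, and a fit of the compared groups alone 3 higher on the adjusted p for FAK-kd over FAK-/- cells. Chosen after seeing the data, leaving out FAK-WT replicate 1 and FAK-/- replicate 3 together gave 2 higher for FAK-WT over FAK-kd cells, 14 higher on the adjusted p for FAK-kd over FAK-/- cells, and 2 lower (FAK-WT over FAK-/-) and 2 higher (FAK-kd over FAK-/-) pathway genes. The cause was not tested. *Itgb1* in FAK-kd over FAK-/- cells changed sign to -0.00214 with DESeq2's size factors (-0.00212 in DESeq2), -0.00936 by library size and -0.00401 with 10 counts; without both libraries it was -0.095, FAK-WT over FAK-/- cells gave -0.069 and *Zyx* in FAK-kd over FAK-/- cells 0.11.

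Leaving out 1 library at a time, both criteria gave 2 to 3 higher and 3 to 4 lower of the 44 genes for FAK-WT over FAK-/- cells, 1 to 2 and 2 to 3 for FAK-WT over FAK-kd cells, and 0 to 0 and 0 to 1 for FAK-kd over FAK-/- cells. On the adjusted p the ranges were 5 to 9 and 8 to 15, 5 to 5 and 11 to 20, and 3 to 12 and 1 to 4. Pathway genes gave 1 to 4 and 2 to 6, 3 to 4 and 5 to 6, and 1 to 2 and 0 to 1. Without FAK-/- replicate 3 alone, 12 genes were higher and 4 lower in FAK-kd than in FAK-/- cells on the adjusted p. *Itgb1* ranged from -0.075 to 0.087, -0.0037 to 0.041 and -0.095 to 0.061 over the 3 comparisons, and in FAK-kd over FAK-/- cells *Itgb4* from -0.046 to 0.18 and *Zyx* from -0.41 to 0.11. With the replicate number as a block, 2 genes were higher and 3 lower for FAK-WT over FAK-/- cells with both criteria and 1 and 3 for FAK-WT over FAK-kd cells; *Itgb2* and *Tln2* (FAK-WT over FAK-/-) and *Lpp* (FAK-kd over FAK-/-) lost the call, *Itgb4* gained it in both FAK-WT comparisons and *Zyx* for FAK-WT over FAK-kd cells. FAK-WT replicate 1 limits the depth for genes under about 3.78 CPM.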
